A study of Homo sapiens with 60 samples.

Results

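The genes described here encode 45 core proteins of the spliceosome, the machine that removes introns from pre-mRNA. The measurements are of their own transcripts near 14 baits, which were nuclear proteins or reference constructs. The members are a list of gene symbols, all 45 of which were among the 60590 genes counted, and the rule that names them uses no measured value. RNA was labelled by APEX2, a peroxidase that, given biotin-phenol and hydrogen peroxide, tags nearby molecules with biotin. The cells were Flp-in HEK293, an established human embryonic kidney line into which a construct is inserted at a fixed genomic site. They stably expressed a bait fused to FLAG-APEX2 and were given biotin-phenol at 500 µM over 30 minutes, then hydrogen peroxide at 1 mM over 1 minute. Every group shared that treatment and tag, and the labels state neither the promoter of the fusions nor the number of clones.

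The baits SRSF7, SRSF1 and RNPS1 are proteins of nuclear speckles, and SAM68, PML, SP100, SMN2, WRAP53, NPAT, FBL and LMNA are proteins of other nuclear bodies, the nucleolus or the lamina. NLS, GFP and FLAG name constructs with a nuclear import signal, a fluorescent protein and the epitope tag. For each bait 2 libraries were made from RNA after streptavidin pulldown and 2 from RNA before it, called inputs, all ribosome-depleted, which makes 56 libraries. A second table held 4 SRSF7 pulldown libraries, 2 of poly(A)-selected and 2 of ribosome-depleted RNA. The comparisons ask which spliceosome transcripts a pulldown held in a larger or smaller share than its own input.

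The spliceosome is built from the U1, U2, U4, U5 and U6 small nuclear ribonucleoproteins. Sm proteins form a ring of small subunits around the U1, U2, U4 and U5 RNAs, and the LSm proteins form the corresponding ring on U6. The U2 particle carries the SF3A and SF3B complexes, which hold the branch point, and the U5 particle carries PRPF8, SNRNP200 and EFTUD2, the large proteins of the catalytic centre. SF1, U2AF1 and U2AF2 recognise the branch point and the 3′ splice site first, and the Prp19 complex joins when the machine is activated. Fully assembled particles and many of these proteins are concentrated in nuclear speckles, whereas their messenger RNAs are translated in the cytoplasm.

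The input libraries held 14038645 to 56256915 reads in genes, the pulldowns 19280434 to 42097988 and the 4 libraries counted in the second table from 23522546 to 30511742. HEK293 markers were present in every input, VIM at 568 to 1238 CPM and PAX2 at 12.4 to 28.9 CPM, and PTPRC, ALB, CD3E, HBB, GFAP and PECAM1 were at 0.762 CPM or less. Levels are normalised CPM (counts per 1000000 reads) and differences are log2 pulldown over input. FBL input 1 and NPAT input 1 stood apart from their replicates, with a chi-square per degree of freedom of 167 and 103 between the 2 inputs against 1.31 to 12.8 for the inputs of the other baits. Between pulldowns it was 61.0 in GFP, 36.7 in NPAT, 36.2 in LMNA, 31.0 in SMN2 and 21.8 in SRSF7, and 2.98 to 9.85 in the other 9. Counts of the processed pseudogenes RPS14P8 and RPS3AP21 sorted the libraries into 3 sets: 16 inputs, a set of 12 inputs with 24 pulldowns, and the pulldowns of LMNA and GFP. Inputs and pulldowns of FLAG, NLS, PML, SRSF1 and SRSF7 came from 1 set. In the other 9 baits the fraction cannot be told apart from the library set. Whether replicates were separate cultures is not stated, so a p-value covers library-to-library spread, which may be technical.

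All 45 members passed the filter on low counts in the first table and 44 in the second. SNRPD3, a core Sm protein gene, read 0 to 13 counts per library, which is too few to describe, and its calls as lower in LMNA and GFP rest on those counts. U2AF1 read 16 to 404 counts and shares sequence with the near-copy U2AF1L5, so reads of the pair cannot be assigned. In the RefSeq annotation SNRPD3 overlaps GUCD1, and SNRPB, LSM4, SF3A1, SF3B1, SF3B2, SF3B3, PRPF31, EFTUD2, DDX23, DHX15, CDC5L and PLRG1 also overlap another gene or small RNA, with which they can share reads.

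More of these transcripts fell than rose over input in each of the 14 baits, though in PML and SP100 this depended on the processing. In the SRSF7 pulldowns 1 member rose and 22 fell, where 20.4% of the 23681 genes tested rose and 19.8% fell (edgeR's quasi-likelihood test, Benjamini-Hochberg adjusted p under 0.05). With SRSF1, 5 rose and 25 fell, against 28.4% and 22.5% of all genes. With RNPS1, 5 rose and 23 fell, against 16.6% and 17.9%. The median member stood at -0.45, -0.43 and -0.40 in these speckle baits, and the median of all genes at 0.17, 0.28 and 0.16. Scaling by total counts moved the median of all genes by 0.25, 0.30 and 0.16 and gave 7 higher and 15 lower, 11 and 16, and 7 and 16 members. Of the 23681 genes, 7121 were then higher and 2733 lower with SRSF7, 9266 and 3511 with SRSF1, and 5685 and 3195 with RNPS1. SAM68, an RNA-binding protein that forms its own nuclear bodies, had 6 members higher and 16 lower against 21.2% and 22.0% of all genes. Total counts, which shifted all genes by -0.22, gave 3 and 26, where 3627 of the 23681 genes were higher and 7086 lower.

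PML, the scaffold of PML bodies, had 5 members higher and 13 lower against 9.87% and 15.1% of all genes, and SP100, its partner, 6 and 11 against 11.4% and 16.5%. Size factors gave 10 and 10 for PML, where 3213 of the 23681 genes were higher and 3031 lower. They gave 12 and 9 for SP100, where 3768 were higher and 3168 lower. In both the balance of directions thus rests on the processing. Without FBL input 1 and NPAT input 1 it was 15 and 14 for PML and 13 and 13 for SP100, where 36.1% and 38.4% of all genes were called. PML had 17 and 14 within its single library set, where 40.6% were called. SMN2, of gems, had 4 higher and 11 lower against 4.67% and 10.5%. WRAP53, of Cajal bodies, had 0 and 10 against 10.1% and 9.18%. Fewer than these 15 in SMN2 and 10 in WRAP53 were called when pulldown 1 or input 2 of the bait was left out. Such a refit leaves 1 library in a group, and its share of all genes called is not given here. The drop is therefore not a result about the members. NPAT, of histone locus bodies, had 5 and 22 against 22.9% and 23.4%. With size factors it had 9 and 21, where 6371 of all genes were higher and 5079 lower. FBL, of the nucleolus, had 2 and 21 against 16.2% and 20.8%. With size factors it had 5 and 20, where 4512 of all genes were higher and 4452 lower. Without FBL input 1 and NPAT input 1, NPAT had 1 and 22 and FBL 1 and 26, where 26.2% and 24.5% of all genes were called in either direction.

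LMNA, the lamin of the nuclear envelope, had 4 higher and 30 lower against 27.8% and 27.6% of all genes, and GFP 0 and 32 against 26.4% and 27.0%. In both baits most coding genes that span under 20 kb also fell, as given with gene span below. NLS had 2 higher and 21 lower against 7.99% and 14.4%. Total counts, which shifted all genes by 0.20, gave 4 and 11, where 4434 of the 23681 genes were higher and 2211 lower. FLAG had 0 higher and 13 lower against 1.69% and 9.16%. For the 3 baits in which edgeR called 0 members higher, an unadjusted p under 0.05 gave 1 higher in WRAP53, 0 in GFP and 1 in FLAG, and DESeq2 gave 0, 2 and 0. Without FBL input 1 and NPAT input 1 these baits had 2, 3 and 4 members higher, where 29.6%, 59.7% and 23.7% of all genes were called. GFP also had 2 higher with size factors or total counts, and FLAG 3 within the single library set. Of the 23681 genes, 7079 and 7177 were higher in GFP with these scalings, and 2216 in FLAG within the set. The 13 FLAG calls became 8 with size factors or total counts, where 10.0% and 9.82% of all genes were called. Fewer than 13 also passed when any 1 of its libraries was left out. The share of all genes called in those refits is not given here. These are bulk libraries, so labelling in fewer cells and less labelled RNA per cell cannot be told apart.

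**Figure D1:**
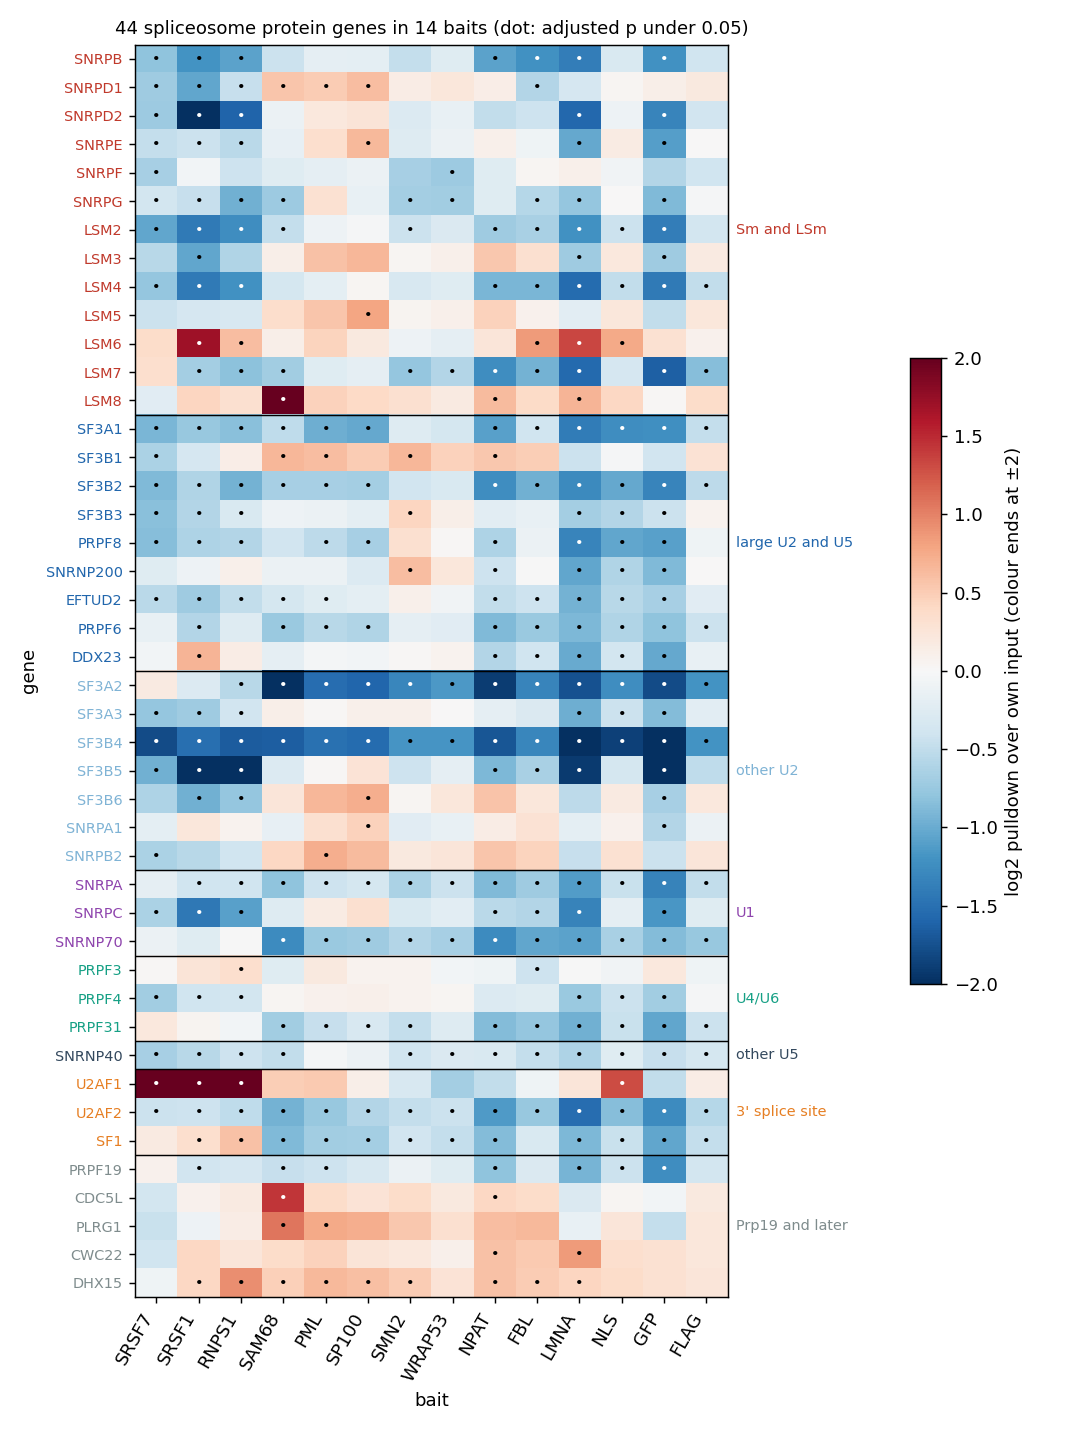
Log2 pulldown over own input of 44 members (rows, grouped by class; SNRPD3 left out for its low counts) in the 14 baits (columns), with a dot where the adjusted p was under 0.05 and colours ending at ±2. SF3B4 and U2AF2 are lower in every column, DHX15 is higher in 9 columns, and LSM8 and CDC5L reach 2.30 and 1.44 in SAM68.

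The genes of the small Sm and LSm proteins and those of the large U2 and U5 proteins, called large genes here, kept different orders in different baits. The classes were set by protein size, but they also differ in gene span. The Sm and LSm genes span 4863 (SNRPD2) to 22306 bases (LSM3). The large genes span 22408 (DDX23) to 53853 bases (SF3B3), except SF3B2 at 16945. Protein size and gene span can therefore hardly be told apart in the class contrast. The 14 Sm and LSm genes had a median of -0.03 in NLS, 0.27 in PML and 0.23 in SP100, and the 9 large genes -0.60, -0.25 and -0.27. The Sm and LSm median was therefore above the large median by 0.57, 0.52 and 0.51 in these baits. In NPAT the gap was 0.41, but 0.11 without the 2 inputs that stood apart, and pairs of libraries with the same number gave 0.83 and 0.06. SAM68 gave 0.21, FLAG 0.15, SRSF7 0.12 and LMNA 0.11. The order was the other way in SMN2, with a gap of -0.37, in RNPS1 with -0.25, in WRAP53 with -0.23 and in SRSF1 with -0.20. Gaps of -0.11 in GFP and -0.10 in FBL completed the 14. Without SNRPD3 the gap was -2.0e-05 in GFP, -0.02 in FBL, -0.10 in SRSF1, 0.08 in SRSF7 and 0.24 in LMNA, so the size of these gaps turns on that gene's few reads. The sign of 3 small gaps turned with 1 library: GFP gave 0.09 without pulldown 2, FBL 0.070 without input 2 and FLAG -0.05 without pulldown 1. Others shrank: SRSF1 to -0.0021 without pulldown 1, RNPS1 to -0.11 and WRAP53 to -0.14 without pulldown 2, and LMNA to 0.015 without input 2 and 0.018 without pulldown 1. Libraries of the same number gave -0.16 and -0.01 in SRSF1 and 0.14 and -0.14 in GFP. Scaling by total counts left each gap nearly in place, since it moves both medians alike.

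**Figure D2:**
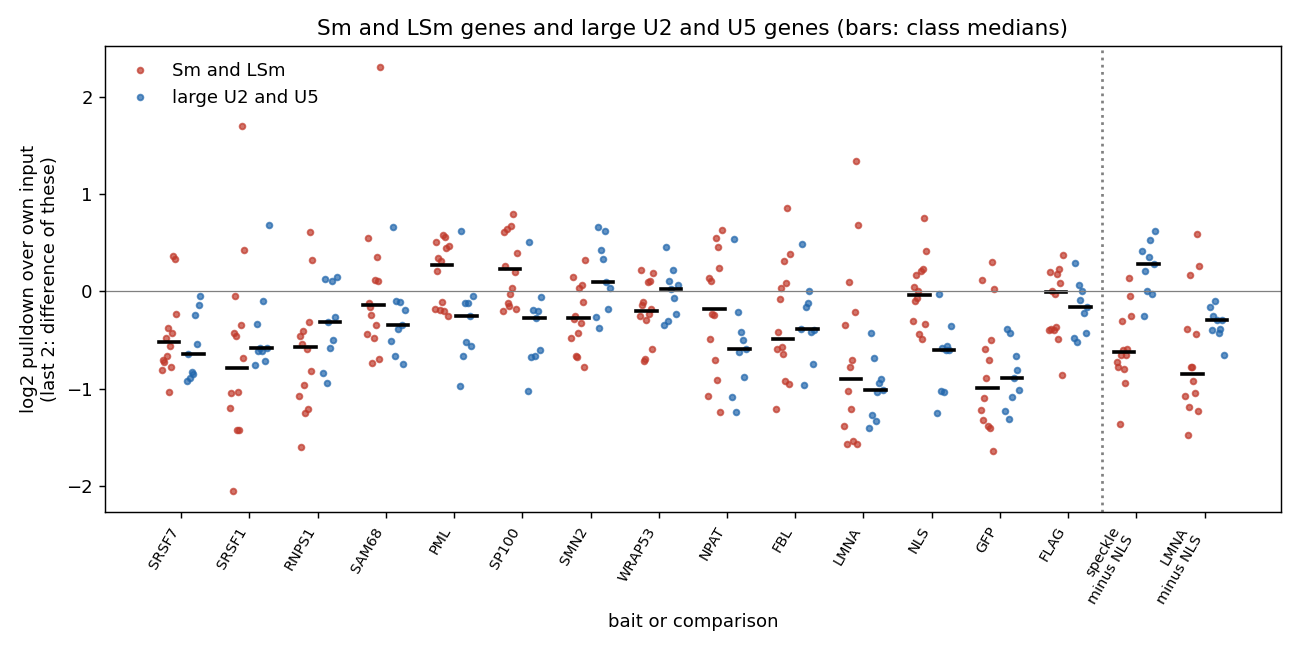
Log2 pulldown over own input of single Sm and LSm genes (red) and large U2 and U5 genes (blue) in 14 baits, and at the right the differences from NLS; black bars are class medians, and SNRPD3 counts in the medians but has no point. The red median lies above the blue one by 0.57 in NLS and below it by 0.25 in RNPS1, and the speckle difference separates them by 0.90.

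Within the rings the members did not move alike. SNRPD2, an Sm core protein, ran from -2.05 in SRSF1 to 0.27 in SP100. SNRPB, the Sm protein with an extended tail, fell in 7 baits, LSM4 in 9, LSM2 and LSM7 in 10 each, and SNRPG in 9. LSM7, part of the ring on U6, had the lowest mean of its class over the 14 baits at -0.73. Its CPM was 67.0 and 61.0 in the LMNA inputs and 25.0 and 18.3 in the LMNA pulldowns, a difference of -1.56 ± 0.15 (SE; adjusted p = 7.14e-11). SRSF7 was the exception for LSM7, with 87.3 and 77.2 CPM before and 103 and 104 CPM after pulldown; all values after pulldown were the higher ones, but the difference of 0.33 ± 0.14 (SE; adjusted p = 0.0631) did not pass. It passed within the single library set, at 0.43 (adjusted p = 1.66e-05 by edgeR). The ribosome-depleted SRSF7 pulldowns of the second table read LSM7 at 29.4 and 30.7 CPM. That table was scaled alone and has no inputs, so these levels do not show whether LSM7 rose over input there. Over all baits LSM7 lay at 56.1, 72.0 and 121 CPM (lowest, median and highest) in the inputs and 18.3, 43.0 and 104 CPM in the pulldowns.

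LSM6, another subunit of that ring, had the highest mean of the class at 0.48 and rose in 5 baits, SRSF1, LMNA, FBL, NLS and RNPS1. In SRSF1 it read 17.4 and 17.5 CPM before and 55.7 and 57.5 CPM after pulldown, a difference of 1.69 ± 0.20 (SE; adjusted p = 4.94e-09). In LMNA it read 19.6 and 18.5 CPM before and 51.7 and 44.7 CPM after, a difference of 1.34 ± 0.20. The SRSF1 and LMNA pulldowns were the 4 highest of all, over a pulldown range of 16.7, 24.8 and 57.5 CPM and an input range of 7.27, 19.7 and 24.2 CPM. LSM6 thus went against LSM2, LSM4 and LSM7, which fell in both of these baits. LSM5 rose in SP100 alone, at 0.79 ± 0.22, and LSM3 fell in SRSF1, LMNA and GFP. SNRPD1 rose in SAM68, PML and SP100, by 0.61 in SP100, and fell in SRSF7, SRSF1, RNPS1 and FBL, by -1.05 in SRSF1. SNRPE, which also belongs to the Sm ring, rose in SP100 and fell in 5 baits.

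Among the large proteins, SF3A1, a scaffold subunit of SF3A, had the lowest mean at -0.82 and fell in 12 baits. It lay at 173, 308 and 429.7 CPM in the inputs and 93.5, 172 and 277 CPM in the pulldowns. The NLS pulldowns read 129 and 139.8 CPM against 315 and 322 CPM in the NLS inputs, a difference of -1.25 ± 0.16 (SE; adjusted p = 1.97e-07). SF3B2 also fell in 12 baits, PRPF6, the bridge of the tri-snRNP, and the GTPase EFTUD2 in 10 each. SF3B1, the branch point clamp often mutated in leukaemia, had the highest mean at 0.18. It read 337 and 343 CPM in the SMN2 inputs and 494 and 584 CPM in the SMN2 pulldowns, a rise of 0.67 ± 0.22. SF3B1 also rose in SAM68, PML and NPAT and fell in SRSF7, where it went from 378 and 346 CPM to 199 and 266 CPM. The FBL input 1 value of 121 CPM was the lowest of all inputs, which ran over 121, 322 and 479 CPM, against 199, 371 and 584 CPM in the pulldowns.

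PRPF8, the largest protein of the machine and the core of its active site, fell in 9 baits. In NLS it read 1184 and 1190.0 CPM before and 553 and 605 CPM after pulldown, a difference of -1.04 ± 0.19 (SE; adjusted p = 5.04e-05). SMN2 pulldowns read 1446 and 1639.8 CPM against 1226 and 1232 CPM in their inputs, and the difference of 0.33 ± 0.18 did not pass. SNRNP200, the helicase that unwinds U4 from U6, and SF3B3 did rise in SMN2, by 0.62 ± 0.16 and 0.43 ± 0.09. SMN2 was thus the only bait in which 3 of the 9 large genes were called higher.

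SF3B4, a U2 protein that contacts the pre-mRNA beside the branch point, fell in every bait and had the lowest mean of all 45, -1.59. Its input levels were 41.9, 102 and 141 CPM and its pulldown levels 14.6, 34.3 and 54.7 CPM. Only FBL input 1, at 41.9 CPM, fell within the pulldown range. The differences ran from -2.14 ± 0.23 (SE; adjusted p = 7.91e-10) in LMNA to -1.17 ± 0.22 in WRAP53. Its gene spans 4487 bases at chr1:149923317-149927803 in GRCh38.p14. U2AF2, the large subunit of U2AF that binds the polypyrimidine tract, also fell in every bait, from -1.52 ± 0.12 in LMNA to -0.42 ± 0.12 in SRSF1. Under total counts U2AF2 did not pass in SRSF7 and SRSF1. The U2AF2 inputs lay at 275, 352 and 428 CPM and the pulldowns at 98.8, 219 and 283 CPM, with a small overlap of the 2 ranges across baits.

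SNRPB2, the U2 protein that binds the stem of U2 RNA, had the highest mean among the smaller U2 genes at 0.09. It rose in PML, from 39.6 and 31.7 CPM to 59.4 and 58.5 CPM (0.73 ± 0.25), and fell in SRSF7, from 46.7 and 43.2 CPM to 24.5 and 33.6 CPM (-0.63 ± 0.25). Its inputs lay at 13.8, 41.1 and 55.1 CPM and its pulldowns at 21.2, 42.8 and 65.5 CPM, so across baits the fractions overlapped. The 3 U1 genes had means of -0.53 for SNRPC, -0.62 for SNRPA and -0.71 for SNRNP70. SNRNP70, which anchors U1 RNA, went from 344 and 324 CPM to 138 and 142 CPM in SAM68 (-1.26 ± 0.15), whereas in RNPS1 it read 316 and 272 CPM before and 285 and 300.1 CPM after. SNRPC, which helps U1 find the 5′ splice site, showed the other order. It went from 140.0 and 134 CPM to 51.9 and 50.2 CPM in SRSF1 (-1.43 ± 0.15) and read 98.7 and 91.8 CPM before and 77.8 and 81.4 CPM after pulldown in SAM68.

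Over all libraries SNRNP70 lay at 234, 310.2 and 550.2 CPM in inputs and 129, 199 and 300.1 CPM in pulldowns, and SNRPC at 67.6, 96.1 and 140.0 and 32.6, 76.6 and 106 CPM. Of the U4/U6 proteins, PRPF3 stayed nearest to its inputs, with a mean of 0.02, inputs at 61.7, 80.0 and 121 CPM and pulldowns at 64.0, 78.1 and 109.7 CPM. PRPF31, which holds U4 and U5 together in the tri-snRNP, had a mean of -0.47 and fell in 10 baits, with inputs at 60.7, 82.8 and 122 CPM and pulldowns at 34.8, 63.3 and 90.9 CPM. SRSF7, SRSF1 and RNPS1 were 3 of the 4 baits in which PRPF31 was not called. SNRNP40, a WD-repeat protein of U5, fell in 12 baits by small amounts, at 109.8, 129.8 and 153 CPM in inputs and 80.7, 104 and 134 CPM in pulldowns.

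The 5 genes of the Prp19 complex and of later steps included the member that rose in the most baits. DHX15, the helicase that takes spent spliceosomes apart, rose in 9 baits. It went from 242 and 254 CPM to 493 and 451 CPM in RNPS1, a difference of 0.93 ± 0.15 (SE; adjusted p = 7.63e-06), and its inputs lay at 129, 244 and 303 CPM against 235, 324 and 493 CPM in the pulldowns. CWC22, which loads the exon junction complex, rose in LMNA (0.85 ± 0.23) and NPAT. PRPF19, the ubiquitin ligase that names the complex, had the lowest mean of this class at -0.45 and fell in 7 baits, with inputs at 128, 193 and 281 CPM and pulldowns at 62.3, 146 and 209 CPM. In SAM68 PRPF19 fell, whereas CDC5L and PLRG1, subunits of the same complex, rose.

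The speckle baits were next set against NLS, the construct spread through the nucleus, as the mean of SRSF1, SRSF7 and RNPS1 pulldown over input minus that of NLS. In this comparison 13 members were lower and 8 higher, where 7.44% of all genes were lower and 11.4% higher. The Sm and LSm genes had 8 of 14 lower and 0 higher, with a median of -0.62, and the large U2 and U5 genes had 0 lower and 2 of 9 higher, DDX23 and SNRNP200, with a median of 0.28. All genes tested had a median of 0.14. The gap between the 2 class medians was -0.90, and libraries with the same number gave -0.78 and -0.99. Over own input the gap was 0.57 in NLS, and smaller in size in SRSF7 (0.12), SRSF1 (-0.20) and RNPS1 (-0.25). The large median over own input was -0.64 in SRSF7, -0.58 in SRSF1, -0.31 in RNPS1 and -0.60 in NLS. The Sm and LSm medians were -0.52, -0.79, -0.57 and -0.03. Both class medians were thus below input in each speckle bait, and the 0.28 is not a rise over input. In SRSF7 the large median was the lower one. For speckles against NLS, DESeq2 and an unadjusted p under 0.05 also gave 0 Sm and LSm genes higher and 0 large genes lower. All 3 genes of 3′ splice site recognition were higher. Of the 5 Prp19 and later genes 0 passed by edgeR, by DESeq2 or at an unadjusted p under 0.05. Within the single library set that holds SRSF7, SRSF1 and NLS, and so without RNPS1, 18 members were lower and 16 higher where 38.0% of all genes were called, and the class medians were -0.55 and 0.34. The counts of 0 did not hold there: LSM6 was higher at 0.34 (adjusted p = 0.00853 by edgeR), SF3B1 lower at -0.40 (adjusted p = 0.00669), and PRPF19, PLRG1 and CWC22 passed at 0.35, -0.46 and -0.26.

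Every NLS library bore on this count, since fewer than the 21 members were called when any 1 of the 4 was left out. The share of all genes called in those refits is not given here, so the drop is not a result about the members. Without FBL input 1 and NPAT input 1, which belong to neither bait but share the estimate of spread, 17 were lower and 10 higher where 30.0% of all genes were called. Of the called members, the 4 lowest were SF3B5, SNRPD2, SF3B6 and LSM3, and the 4 highest U2AF1, SF3A2, SF1 and DDX23. The 100 bases before the transcription start of the 2 lowest and, among genes with an unshared sequence, the 2 highest called members are shown to let the promoters of both directions be compared. They are from RefSeq, read 5′ to 3′ on the gene's strand, with matches to the ETS factor core in capitals.
SF3B5, GRCh38.p14, chr6:144095574-144095673, minus strand: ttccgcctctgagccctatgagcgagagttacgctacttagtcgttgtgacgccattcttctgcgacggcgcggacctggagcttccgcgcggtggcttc
SNRPD2, GRCh38.p14, chr19:45692317-45692416, minus strand: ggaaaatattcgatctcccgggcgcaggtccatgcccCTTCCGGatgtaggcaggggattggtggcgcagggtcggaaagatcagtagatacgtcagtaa
SF3A2, GRCh38.p14, chr19:2236724-2236823, plus strand: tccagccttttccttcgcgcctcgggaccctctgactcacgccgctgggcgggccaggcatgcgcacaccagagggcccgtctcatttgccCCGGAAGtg
SF1, GRCh38.p14, chr11:64778543-64778642, minus strand: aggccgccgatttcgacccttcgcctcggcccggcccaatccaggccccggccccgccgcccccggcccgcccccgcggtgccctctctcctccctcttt
The motif searched was CCGGAAG or its reverse complement CTTCCGG. It occurred once in the SNRPD2 and the SF3A2 sequence, genes that moved in opposite directions, and these letters were not in the SF3B5 and SF1 windows. Of the 41 members with a promoter in the table, 13 held it in the same window, as did 5.95% of 27305 promoters. The letters TATAAA or TTTATA were in 0 of the 41 and in 5.34% of all.

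SF3B5, the smallest SF3B subunit, lies at chr6:144094884-144095573 and its gene spans 690 bases, the shortest of the 45. SF3B5 read 77.9, 90.2 and 123 CPM (lowest, median and highest) in the 6 speckle inputs and 19.7, 25.2 and 54.1 CPM in the 6 speckle pulldowns. The NLS inputs read 67.5 and 70.2 CPM and the NLS pulldowns 51.9 and 56.4 CPM. The 4 libraries of SRSF1 and RNPS1 pulldown lay below both NLS pulldowns and the SRSF7 pulldowns overlapped them, while every speckle input was above the NLS inputs. The difference was -1.40 ± 0.25 (SE; adjusted p = 7.09e-05), and -1.20 ± 0.15 within the single library set. SNRPD2, at chr19:45687454-45692316, is an Sm core subunit. SNRPD2 read 164, 189.6 and 231 CPM (lowest, median and highest) in the 6 speckle inputs and 53.3, 59.2 and 131 CPM in the 6 speckle pulldowns. Inputs of NLS were at 172 and 178 CPM and its pulldowns at 158 and 170.2 CPM. All speckle pulldowns were below the NLS pulldowns, and the difference was -1.36 ± 0.27 (SE; adjusted p = 2.36e-04), or -1.23 ± 0.16 within the set.

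SF3B6, which sits at the branch point adenosine, moved less far. SF3B6 read 31.5, 32.8 and 41.7 CPM (lowest, median and highest) in the 6 speckle inputs and 16.8, 19.7 and 23.9 CPM in the 6 speckle pulldowns. The NLS inputs read 30.5 and 28.0 CPM and the NLS pulldowns 34.4 and 32.2 CPM. The speckle and NLS pulldowns did not overlap, and the difference was -0.97 ± 0.30 (SE; adjusted p = 0.0176). Its call did not hold when NLS input 1, NLS input 2 or NLS pulldown 1 was left out, with adjusted p of 0.0552, 0.0927 and 0.0568. LSM3 belongs to the U6 ring. LSM3 read 60.03, 64.4 and 78.4 CPM (lowest, median and highest) in the 6 speckle inputs and 35.9, 37.6 and 51.6 CPM in the 6 speckle pulldowns. For NLS the inputs lay at 60.9 and 55.3 CPM and the pulldowns at 67.6 and 67.3 CPM. Again the pulldowns did not overlap, with a difference of -0.94 ± 0.32 (SE; adjusted p = 0.036). The LSM3 call was lost without any 1 of 7 libraries, the 4 of NLS and 1 pulldown each of RNPS1, SRSF1 and SRSF7, at adjusted p of 0.0501 to 0.1501. Within the single set both passed, at -0.91 ± 0.13 and -0.95 ± 0.13. The other lower members were SNRPC, SNRPB2, LSM2, SNRPD1, SNRPB, LSM4, SNRPE, SNRPG and SNRNP40, from -0.87 to -0.29.

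U2AF1, the small subunit of U2AF that reads the AG at the intron end, had few reads. U2AF1 read 1.07, 1.43 and 3.58 CPM (lowest, median and highest) in the 6 speckle inputs and 6.26, 9.54 and 13.2 CPM in the 6 speckle pulldowns. NLS itself gave 2.696 and 3.27 CPM in its inputs and 6.87 and 7.78 CPM in its pulldowns. All speckle and NLS pulldowns were above all of these inputs, and the speckle difference was 1.13 ± 0.34 (SE; adjusted p = 0.0144). The call was lost without NLS input 2 or NLS pulldown 1, at adjusted p of 0.118 and 0.110. Its near-copy U2AF1L5 moved with it, from 3.54 and 4.72 CPM to 28.3 and 31.0 CPM in SRSF1 and from 10.1 and 10.9 CPM to 21.7 and 23.7 CPM in NLS, a speckle difference of 1.00 ± 0.28. Over its own input, U2AF1 rose by 2.86 ± 0.32 in SRSF1, 2.39 ± 0.31 in SRSF7, 2.05 ± 0.30 in RNPS1 and 1.30 ± 0.29 in NLS, and did not pass in the other 10 baits. Its range over all libraries was 0.812, 2.66 and 4.16 CPM in inputs and 0.728, 3.22 and 13.2 CPM in pulldowns.

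SF3A2, an SF3A subunit whose gene lies at chr19:2236824-2248655, was the highest of the members with many reads. SF3A2 read 227, 267 and 320.2 CPM (lowest, median and highest) in the 6 speckle inputs and 183, 229 and 271 CPM in the 6 speckle pulldowns. The NLS inputs read 283 and 302 CPM and the NLS pulldowns 120.2 and 127 CPM. Every speckle pulldown of the first table was above both NLS pulldowns, although only in SRSF7 were the pulldowns above their own inputs. The difference was 1.02 ± 0.15 (SE; adjusted p = 2.69e-06), and 1.26 ± 0.10 within the set. SF3A2 fell over its own input in 12 baits and was not called in SRSF7 and SRSF1. Within the single library set it passed in both, at 0.28 in SRSF7 and -0.20 in SRSF1 (adjusted p = 0.00329 and 0.0311 by edgeR). SF1, the first protein to bind the branch point, lies at chr11:64764606-64778542. SF1 read 367, 378 and 479 CPM (lowest, median and highest) in the 6 speckle inputs and 419.8, 559 and 594 CPM in the 6 speckle pulldowns. In NLS its level was 406 and 402 CPM before and 291 and 305 CPM after pulldown. All speckle pulldowns were above all NLS pulldowns, and the difference was 0.81 ± 0.15 (SE; adjusted p = 1.57e-04), or 0.77 ± 0.07 within the set. DDX23, the U5 helicase that displaces U1, was the fourth. DDX23 read 145, 168 and 204 CPM (lowest, median and highest) in the 6 speckle inputs and 149, 172 and 315 CPM in the 6 speckle pulldowns. The NLS inputs read 162 and 162 CPM and the NLS pulldowns 119.8 and 133 CPM. SRSF1 pulldowns held the 2 highest values, at 314 and 315 CPM, and the other speckle pulldowns were nearer to the inputs. The difference was 0.62 ± 0.14 (SE; adjusted p = 0.00157). The rest of the higher members were SNRNP70, SNRNP200, PRPF31 and U2AF2, at 0.53, 0.53, 0.52 and 0.41; U2AF2 fell in the speckle baits by less than in NLS.

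**Figure D3:**
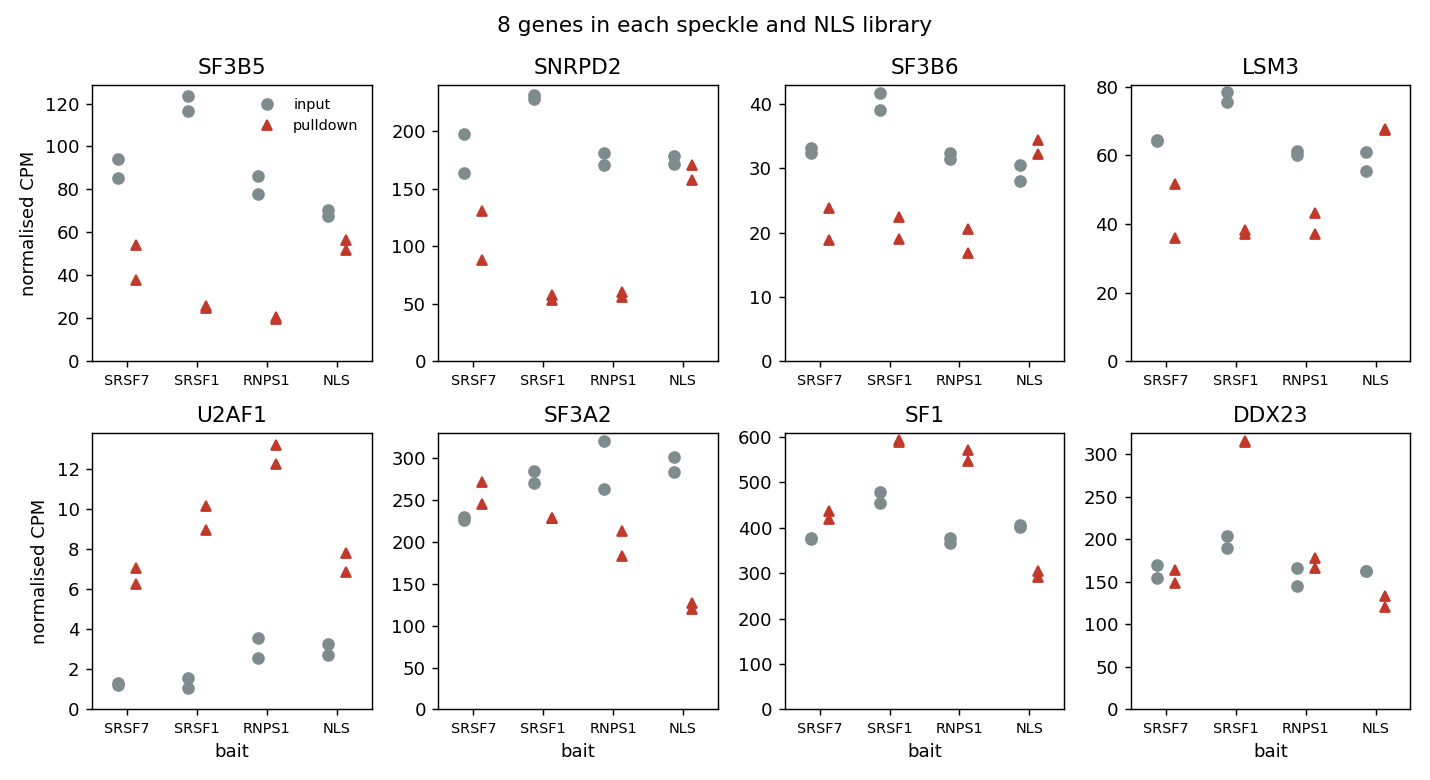
Normalised CPM of 8 genes in each library of SRSF7, SRSF1, RNPS1 and NLS, with inputs as grey circles and pulldowns as red triangles, 2 libraries each, and axes from 0. SF3B5 pulldowns reach down to 19.7 CPM in RNPS1, and SF3A2 pulldowns stay near their inputs in the speckle baits and lie at 120.2 and 127 CPM in NLS.

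**Figure D4:**
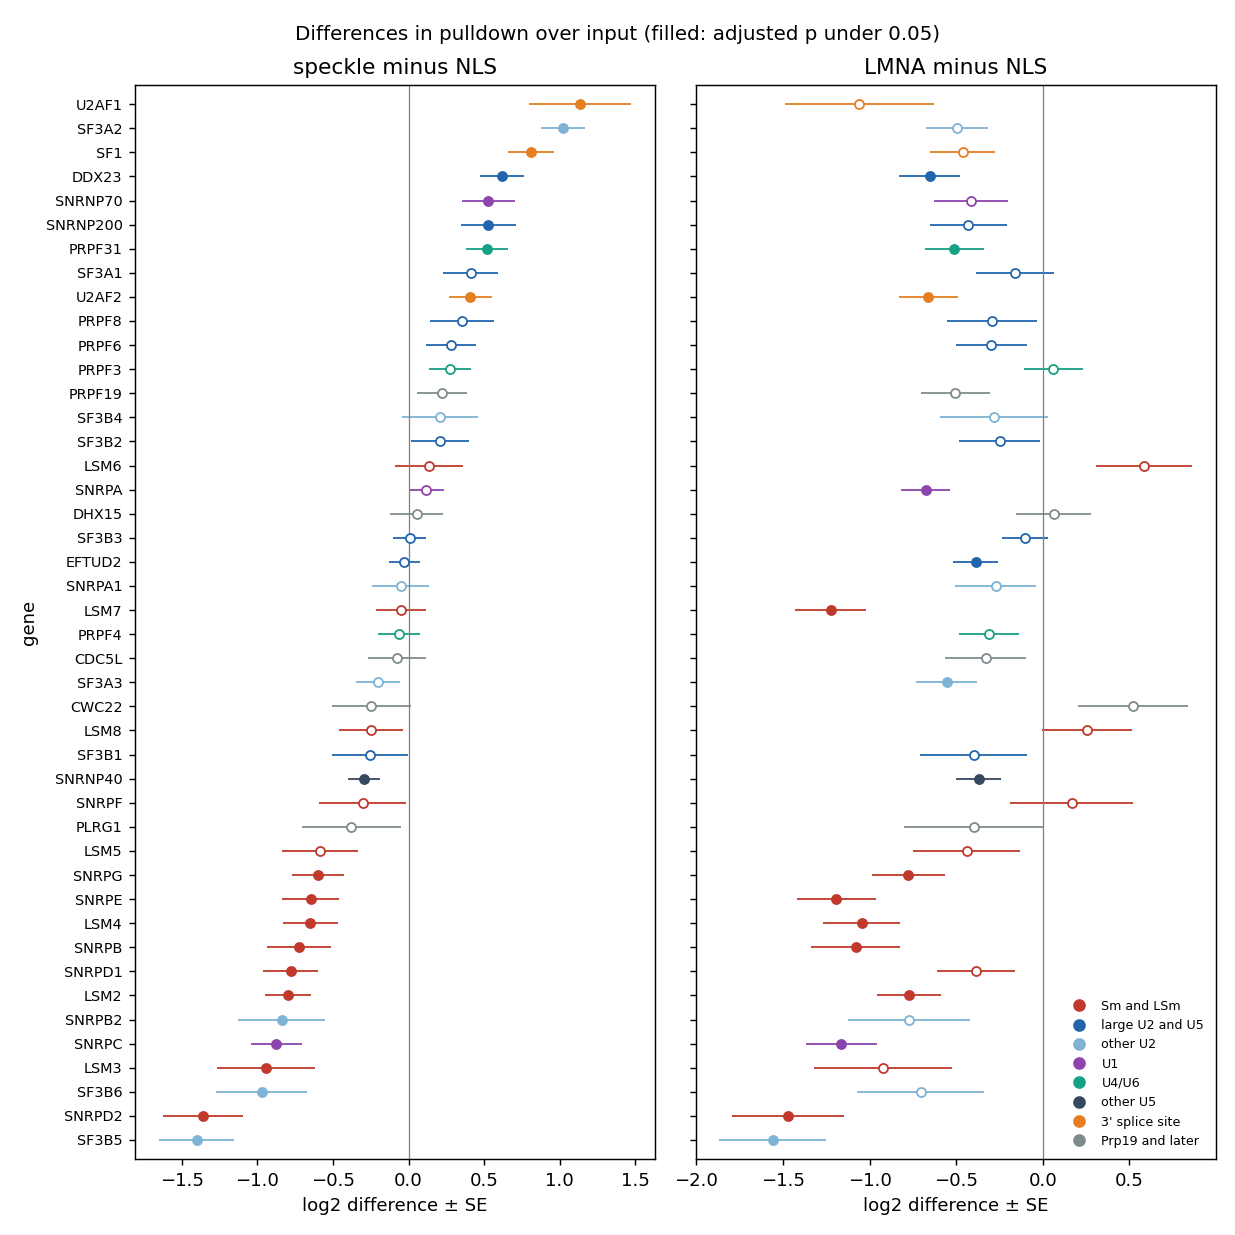
Log2 differences from NLS in pulldown over input (points, bars ± SE) for 44 members in the speckle baits (left) and LMNA (right), ordered by the left panel, coloured by class and filled where the adjusted p was under 0.05. The left panel runs from -1.40 for SF3B5 to 1.13 for U2AF1, and no filled point on the right is above 0.

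LMNA, which marks the nuclear periphery, was set against NLS in the same way. Here 16 members were lower and 0 higher, where 8.49% of all genes were lower and 7.06% higher (edgeR; 1 member was higher at an unadjusted p under 0.05, and 0 by DESeq2). Sm and LSm genes had 7 of 14 lower, with a median of -0.85, and the large genes 2 of 9, DDX23 and EFTUD2, with a median of -0.30. The gap between these medians was -0.55, but over own input the gap was 0.11 in LMNA and 0.57 in NLS. The order of the classes against NLS is thus not their order in LMNA itself. SF3B5 was again the lowest of those called, from 79.2 and 74.5 CPM to 26.4 and 14.5 CPM in LMNA, a difference from NLS of -1.56 ± 0.31 (SE; adjusted p = 8.94e-04). SNRPD2 followed, from 190.1 and 177 CPM to 81.2 and 42.6 CPM (-1.47 ± 0.33). LSM7, SNRPE, SNRPC, SNRPB and LSM4 were lower by more than 1 on the log2 scale, at -1.23, -1.19, -1.16, -1.08 and -1.05. SF3A2, higher in speckles than in NLS, stood at -0.50 ± 0.18 here and did not pass.

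The LMNA pulldowns form a library set with those of GFP and without NLS, so set and bait cannot be told apart, and both comparisons share the NLS libraries. Fewer members were called without LMNA pulldown 2, the lower of the pair for SF3B5 and SNRPD2, or without NLS pulldown 2. The share of all genes called in those refits is not given here. Without the 2 inputs that stood apart there were 29 lower and 2 higher where 28.4% of all genes were called. Own-input values in GFP, from the same set, were -2.04 for SF3B5 and -1.32 for SNRPD2, beside -1.91 and -1.57 in LMNA.

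Gene span, the length from first to last annotated base, differed along with these values. In the speckle comparison the 1250 coding genes under 5 kb had a median of 0.04 and the 1465 of 5 to 10 kb 0.25, whereas the 3 and 7 members of these sizes had medians of -1.36 and -0.65. Coding genes of 10 to 20 kb and 20 to 50 kb had medians of 0.20 and 0.04, and the 18 and 12 members 0.13 and 0.12. In the LMNA comparison coding genes went from -0.70 under 5 kb to 0.40 at 50 kb or more, and the members from -1.47 for 3 to -0.10 for 5. The rank correlation of span with the LMNA difference was 0.52 over 43 members and 0.66 over 14819 coding genes, and with the speckle difference 0.36 and -0.11. Over input in LMNA, 75.0%, 71.6%, 58.2%, 39.9% and 11.7% of coding genes fell, from the shortest span bin to the longest. The members that fell were 3 of 3, 4 of 7, 12 of 18, 9 of 12 and 2 of 5. In GFP these were 75.5%, 71.9%, 60.6%, 37.7% and 8.12%, and 3 of 3, 5 of 7, 13 of 18, 9 of 12 and 2 of 5. Genes of 1 fit share libraries and are not independent replicates, so these are descriptions.

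SAM68 gave the largest rise of any member other than U2AF1, that of LSM8. LSM8, the subunit that makes the LSm ring specific to U6, read 61.6 and 59.0 CPM in the SAM68 inputs and 297 and 298 CPM in the SAM68 pulldowns, a difference of 2.30 ± 0.19 (SE; adjusted p = 1.42e-12). The 26 pulldowns of other baits lay at 49.6, 71.9 and 106 CPM, all below both SAM68 pulldowns. CDC5L, a Myb-like partner of PRPF19, read 144 and 140.1 CPM before and 388 and 382 CPM after pulldown (1.44 ± 0.17), against 114, 186 and 242 CPM in other pulldowns. PLRG1, a further subunit of that complex, read 52.4 and 51.9 CPM before and 109 and 109.8 CPM after (1.07 ± 0.29), against 25.9, 59.0 and 87.0 CPM. For all 3 genes the SAM68 pulldowns were the highest of the 28.

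The SAM68 inputs and pulldowns lie in different library sets, as do those of RNPS1, SP100, SMN2, WRAP53, NPAT and FBL, so SAM68 was set against the mean of these 6 baits. This comparison and the 3 genes were chosen after their values were seen. LSM8 differed by 1.93 ± 0.20 (SE; adjusted p = 8.85e-10) and CDC5L by 1.14 ± 0.18 (SE; adjusted p = 4.66e-06), in a comparison with 3 members higher and 3 lower, where 12.2% of all genes were higher and 7.53% lower. SNRPD1 was the third higher member, at 0.54 ± 0.17, and it did not pass under total counts. SF3A2, SNRNP70 and SF1 were lower, at -0.69 ± 0.14, -0.54 ± 0.16 and -0.52 ± 0.14. PLRG1 was at 0.57 ± 0.31 (SE; adjusted p = 0.226) and passed without FBL input 1, at 0.67 and adjusted p = 0.00550, and without any filter on low counts, at 0.52 and adjusted p = 0.0260. LSM6, of the same ring, was at 0.11 ± 0.20 in SAM68 and did not pass.

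**Figure D5:**
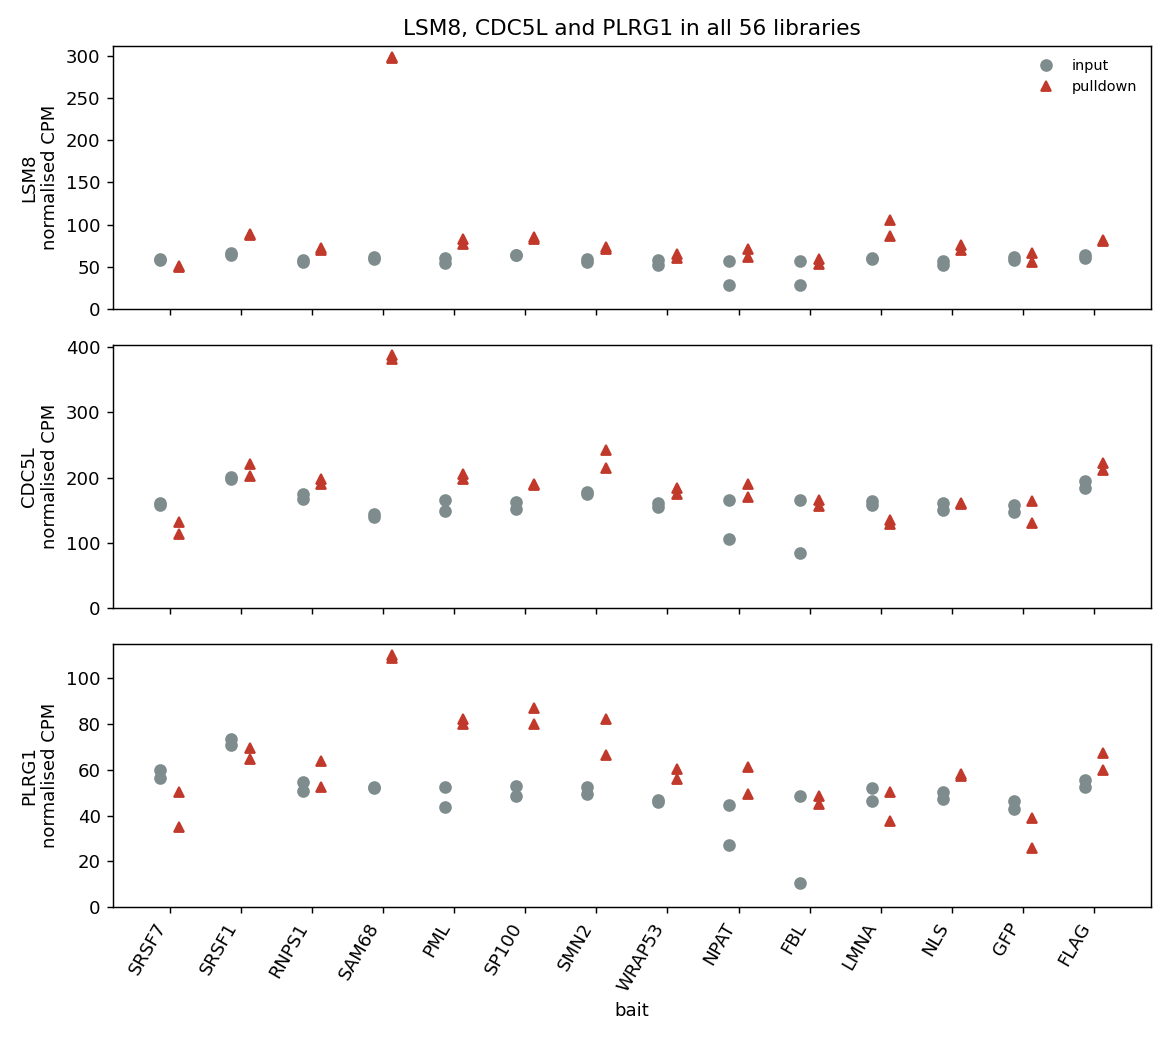
Normalised CPM of LSM8, CDC5L and PLRG1 in all 56 libraries, by bait, with inputs as grey circles and pulldowns as red triangles and axes from 0. The 2 SAM68 pulldowns of LSM8, at 297 and 298 CPM, stand above the highest other pulldown at 106 CPM.

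The second table compared poly(A)-selected with ribosome-depleted RNA in SRSF7 pulldowns. Of 44 members tested, 31 were higher in poly(A) RNA and 2 lower, where 27.3% of 18641 genes were higher and 26.5% lower, and the median member stood at 0.56 against 0.03 for all genes. Sm and LSm genes had 12 of 13 higher with a median of 0.87, and the large genes 6 of 9 with a median of 0.31. SF3B5 was the highest, at 41.3 and 44.5 CPM in poly(A) and 17.3 and 15.7 CPM in ribosome-depleted RNA, with no overlap (1.38 ± 0.11 (SE; adjusted p = 1.11e-10)). SNRPD2 read 95.5 and 109 CPM against 46.0 and 44.9 CPM (1.17 ± 0.09). CWC22 and CDC5L were the 2 lower members. CWC22 read 38.2 and 40.5 CPM against 53.2 and 61.8 CPM (-0.55 ± 0.10), and CDC5L 126 and 127 CPM against 151 and 166 CPM (-0.33 ± 0.08), a call lost under total counts. The ribosome-depleted pulldowns read SF3A2 at 79.5 and 75.8, SF1 at 227 and 237, DDX23 at 77.9 and 74.5 and U2AF1 at 2.16 and 2.47 CPM. All were below the speckle pulldowns of the first table. So were SF3B5, SNRPD2 and LSM3, but not SF3B6. The second table was scaled alone and has no inputs or NLS, so the speckle difference could not be repeated there.

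A further 58 spliceosome genes outside the 45 were counted in the same fits, and 55 were tested. Against NLS in speckles 14 were higher and 5 lower, against 11.4% and 7.44% of all genes, with a median of -0.03. The highest was DDX41, a helicase linked to late splicing steps, at 1.62 ± 0.14, followed by DHX38, the helicase of the second step, at 1.21 ± 0.15. BCAS2, a small Prp19 complex subunit, was the lowest at -0.79 ± 0.21, and LSM1, which replaces LSM8 in the cytoplasmic ring, was at -0.62 ± 0.15. In LMNA against NLS 1 was higher and 9 lower, against 7.06% and 8.49% of all genes. In the poly(A) comparison 35 were higher and 7 lower, against 27.3% and 26.5%, with a median of 0.42. In SAM68 over its own input 14 rose and 12 fell, shares near the 21.2% and 22.0% of all genes, and the highest was CDC40, another second-step factor, at 2.21 ± 0.17.

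Over the 14 own-input values, the pattern of SNRPG was most like those of CCZ1, TMA7 and SNHG5, with Pearson correlations of 0.86, 0.80 and 0.78 among 12230 genes compared. The pattern of PRPF8 was most like those of ADAR, AARS1 and PPP2R5D, at 0.97, 0.96 and 0.96. The 14 points share library sets and 1 fit, so these values describe likeness only. SNRPG read 47.8 and 43.8 CPM in the PML pulldowns and 27.2 and 28.1 CPM in those of RNPS1, its highest and lowest own-input values at 0.31 and -0.96. For PRPF8 these were SMN2 and LMNA, at 0.33 and -1.33.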

How the data were processed

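Flp-in HEK293 libraries of 14 APEX2 baits were analysed as 28 inputs, 28 pulldowns and a second table of 4 pulldowns. The values are counts of reads per gene as the authors deposited them, made with STAR 2.7.4a and featureCounts on hg38 per the submitters' processing notes; annotation and strand setting: not given in the sources used here. The library kit is directional per the labels' protocols. Of 60591 rows, 1 with a cell that is no number was left out. Genes were kept by filterByExpr (23681 and 18641), scaled by TMM and fitted with edgeR 4.0.16 in R 4.3.3 (trended dispersion, glmQLFit robust, 1 mean per bait and fraction, 28 residual degrees of freedom in the first table and 2 in the second). Tests were two-sided glmQLFTest with Benjamini-Hochberg adjustment over all genes tested and a threshold of 0.05. Each deposited count table was fitted alone. The fits were tested on simulated data.

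The rule for the members uses no values, but members and lists were chosen with earlier results of these data known. Values by library are given for the 4 highest and 4 lowest called members of the speckle comparison, for the highest and lowest mean of each class, and for U2AF1 with U2AF1L5. Likeness used genes with a mean of 5 CPM or more. Protein length bins had been planned; gene spans from RefSeq (GRCh38.p14) took their place. Replicate numbers were not taken as pairs: no label pairs them, and same-numbered inputs and pulldowns deviated together with correlations of -0.22 (NPAT) to 0.46 (SP100). The 2 GFP inputs, the closest replicates, differed by more than sampling noise and were kept as 2 libraries. Alternatives were DESeq2 1.42.0 and its size factors, total counts, other filters on low counts, the replicate block, libraries left out and 1 library set. The SAM68 comparison, gene spans and values without SNRPD3 were added after seeing the data. Counting intervals were not used.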

Additional observations from a re-analysis of the deposited data

Results flagged for a closer look

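Of the effects that differed between baits by a test of the difference itself, those given here are the 4 highest and 4 lowest called members of the speckle comparison and LSM8 and CDC5L in SAM68 (edgeR's quasi-likelihood test of the difference in pulldown over input). Between the speckle baits and NLS these were SF3B5 at -1.40, SNRPD2 at -1.36, SF3B6 at -0.97 and LSM3 at -0.94 on the log2 scale, lower in speckles. Higher in speckles than in NLS were U2AF1 at 1.13, SF3A2 at 1.02, SF1 at 0.81 and DDX23 at 0.62. SF3A2 fell over its own input in NLS and by less in RNPS1. It was not called in SRSF7, at 0.18, or in SRSF1. Within the single library set it was higher in SRSF7 at 0.28 and lower in SRSF1 at -0.20 (edgeR, adjusted p under 0.05). U2AF1 had few reads, which cannot be told apart from those of U2AF1L5. The SF3B6, LSM3 and U2AF1 calls did not hold without some single NLS libraries. Between SAM68 and the 6 baits with the same library sets, LSM8 differed by 1.93 and CDC5L by 1.14; both were chosen after their values were seen. No group had 4 or more libraries, so single libraries were not compared with the rest of a group.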

How the results depend on the processing

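Of the 391 calls of members under TMM, 0 changed sign with size factors or total counts, 367 passed with size factors and 331 with total counts. DESeq2, the absence of a filter and the replicate block moved no count of called members by over 1.5 times; the numbers pair no libraries, and under the block the speckle comparison had 18 called members in place of 21. Within the single library set the called members were 35 in SRSF7 (23 in the main analysis), 31 in PML (18), 25 in FLAG (13) and 34 in speckles against NLS (21), where 51.7%, 40.6%, 27.7% and 38.0% of all genes were called. Without FBL input 1 and NPAT input 1 they were 36 in SRSF7, 29 in PML, 26 in SP100 (17), 17 in WRAP53 (10), 22 in FLAG and 31 in LMNA against NLS (16), where 48.4%, 36.1%, 38.4%, 29.6%, 23.7% and 28.4% of all genes were called. FLAG had 8 with size factors and 8 with total counts, and NLS 15 with total counts (23), where 10.0%, 9.82% and 28.1% of all genes were called. Genes of a mean of 5 CPM or more gave Sm and LSm minus large gaps of -0.020 in FBL (-0.10) and 0.24 in LMNA (0.11), as SNRPD3 drops out. Leaving out 1 library at a time, with a lone library assumed to vary like other groups, gave called members of 15 to 22 in SRSF7 (15 without pulldown 1), 24 to 27 in SRSF1, 21 to 23 in RNPS1, 18 to 21 in SAM68, 8 to 13 in PML (8 without pulldown 2, 11 without pulldown 1 or input 2), 10 to 14 in SP100 (10 without input 1), 6 to 11 in SMN2 (6 without pulldown 1, 7 without input 2), 5 to 9 in WRAP53 (5 without pulldown 1, 6 without input 2), 20 to 33 in NPAT, 19 to 33 in FBL, 31 to 33 in LMNA, 11 to 19 in NLS (11 without pulldown 1), 29 to 32 in GFP, 5 to 7 in FLAG, 10 to 20 in speckles against NLS, 9 to 17 in LMNA against NLS and 32 to 35 in the poly(A) comparison. The gaps ran from 0.089 to 0.19 in SRSF7, -0.35 to -0.0021 in SRSF1, -0.32 to -0.11 in RNPS1, 0.15 to 0.25 in SAM68, 0.46 to 0.62 in PML, 0.35 to 0.51 in SP100, -0.48 to -0.31 in SMN2, -0.27 to -0.14 in WRAP53, 0.11 to 0.70 in NPAT, -0.12 to 0.070 in FBL (reversed, at 0.070, without input 2), 0.015 to 0.19 in LMNA, 0.51 to 0.62 in NLS, -0.15 to 0.09 in GFP (0.09 without pulldown 2), -0.05 to 0.20 in FLAG (-0.05 without pulldown 1), -0.99 to -0.82 in speckles against NLS, -0.68 to -0.39 in LMNA against NLS and 0.35 to 0.76 in the poly(A) comparison. The cause of these changes was not tested, apart from SNRPD3. For the refits without 1 library the share of all genes called is not given here. Lower counts in those refits are therefore not a result about the members. SNRPD3 and U2AF1 had the fewest reads of the 45 members, which limits the precision of their values; why was not tested.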
